A study of Homo sapiens with 6 samples.

Results

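The replication fork and origin recognition genes are 41 genes that encode the machinery which copies DNA, without the subunits of the MCM helicase. They were taken by name from a list of the clamp and its loader, the replicative polymerases, GINS, the single-strand binding protein RPA, the origin recognition complex, fork protection and chromatin assembly factors, and the kinase and inhibitor that control origins. All 41 were matched to 1 Ensembl gene ID each among the 60483 genes listed, and the rule is by name and function, although the list was drawn up with earlier results of these data known. The RNA came from DLD-1, a human colorectal cancer cell line, given either a control siRNA (3 libraries) or an siRNA against AHR (3 libraries). AHR is the aryl hydrocarbon receptor, a transcription factor that is switched on by ligands. All 6 samples carry the same passage range and medium in their labels. The sources used here do not give the siRNA sequences, their dose or the time after transfection. No label says that replicates were separate cultures, so the p-values reflect only how these libraries vary, and that variation may be technical.

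A chromosome is copied from many origins. The origin recognition complex (ORC1 to ORC6) binds each origin and loads the MCM helicase, geminin (GMNN) blocks repeat loading, and the kinase CDC7 with its activator DBF4 starts firing. GINS joins the helicase at the fork, polymerase alpha-primase lays down primers, the RFC complex loads the ring-shaped clamp PCNA, and polymerases delta and epsilon extend the strands. RPA coats bare single strands, FEN1, DNA2 and LIG1 trim and seal the lagging-strand pieces, and CAF-1 with ASF1 puts histones back behind the fork. Many of these genes are known targets of E2F factors, which switch them on as cells enter S phase, so their summed RNA is a familiar readout of how many cells of a culture are cycling. In bulk RNA, fewer cells in S phase and less RNA per cell cannot be told apart.

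Total counts ranged from 11567736 to 12937058 in AHR siRNA and from 13585529 to 15037145 in control siRNA libraries. Levels are given as CPM, the counts of a gene relative to the library total after TMM scaling. The AHR transcript (chromosome 7, 16916359 to 17346152 in GENCODE 29, GRCh38) had 117, 144 and 132 CPM in the controls (replicates 1 to 3 here and below) against 95.8, 87.4 and 94.95 CPM after AHR siRNA. The groups did not overlap and AHR RNA stood at 70.9% of control (log2 fold change -0.50, SE 0.08, edgeR adjusted p = 1.98e-05). Principal component 1 (78.2% of variance) split the libraries by group, and component 2 (8.35%) set control siRNA replicate 1 apart from the other two controls. Several epithelial markers were abundant, with EPCAM at a mean of 742 CPM and CDX2 at 225 CPM in control siRNA libraries. The summed level of 10 such markers was 11630 to 13150 CPM in control siRNA and 8030 to 8353 CPM in AHR siRNA libraries. Most of this sum came from KRT8 (means of 6359 CPM in control siRNA and 3902 CPM in AHR siRNA libraries) and KRT18 (2829 and 1756 CPM). KRT19 stood at 98.5% and KRT20 at 96.5% of control, neither called, and VIL1 rose from a mean of 7.47 to 33.5 CPM. The median log2 fold change of the 9 tested epithelial markers was -0.26. Of the 10, a pair was nearly absent, as CDX1 had at most 10 counts in a library and CEACAM5 at most 23. The summed level of 8 fibroblast markers was 2.08 to 3.08 CPM in control siRNA and 2.13 to 3.24 CPM in AHR siRNA libraries, with DCN and LUM at 0 counts in all 6 libraries, and that of 8 leukocyte markers was 2.38 to 3.80 and 1.69 to 2.28 CPM, with no more than 2 counts of PTPRC in any library. The summed level of 5 endothelial markers was 4.83 to 6.30 CPM in control siRNA and 5.96 to 6.98 CPM in AHR siRNA libraries, with PECAM1 at no more than 5 counts in any library. Of the tested markers, 6 of 9 epithelial genes were called lower and 1 higher (VIL1), beside 30.1% lower and 30.0% higher of all tested genes. Of the fibroblast genes, 1 of 2 was called lower (COL1A1) and 1 higher (PDGFRB). The 1 leukocyte gene was called lower (CD14), and 1 of 2 endothelial genes higher (VWF). These last 4 genes were near the floor, with at most 31 counts of COL1A1, 25 of PDGFRB, 55 of CD14 and 30 of VWF in a library. The part of these markers in the results that follow was not tested.

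The genes of the fork and the origin were lower in AHR siRNA cells, nearly without exception. Of the 41 genes, all passed the filter on low counts, 40 were called lower by edgeR's quasi-likelihood test at an adjusted p under 0.05, and none was called higher. Across all 14900 tested genes, 30.1% were called lower and 30.0% higher. The median log2 fold change of the 41 genes was -1.03, or 49.1% of control, against 0.01 for all tested genes. The groups did not overlap, with all 3 AHR siRNA libraries below all 3 controls, for 40 of the 41 genes and for 31.7% of all tested genes. A log2 fold change of -1 or lower was called for 21 of the 41 and for 5.46% of all tested genes, and a fall of more than 1.5-fold, tested against that fold with edgeR's glmTreat, for 31 of the 41 and for 8.03% of all. The gene not called lower was ORC4, whose unadjusted edgeR p was 0.912 and whose adjusted p was 0.921 by DESeq2 and 0.938 by limma-voom.

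The share of all counts that fell on the 41 genes was 0.357%, 0.352% and 0.357% in control siRNA replicates 1 to 3 and 0.217%, 0.207% and 0.217% in AHR siRNA replicates 1 to 3. These shares are relative to library totals, without TMM scaling, and the gap between the groups was many times the range within either. By size of the change, 5 genes stood below 40% of control, 16 at 40 to 50%, 10 at 50 to 60%, 8 at 60 to 75% and 2 above 75%. The same 40 genes were called lower without control siRNA replicate 1, where the median was -1.01.

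**Figure D1:**
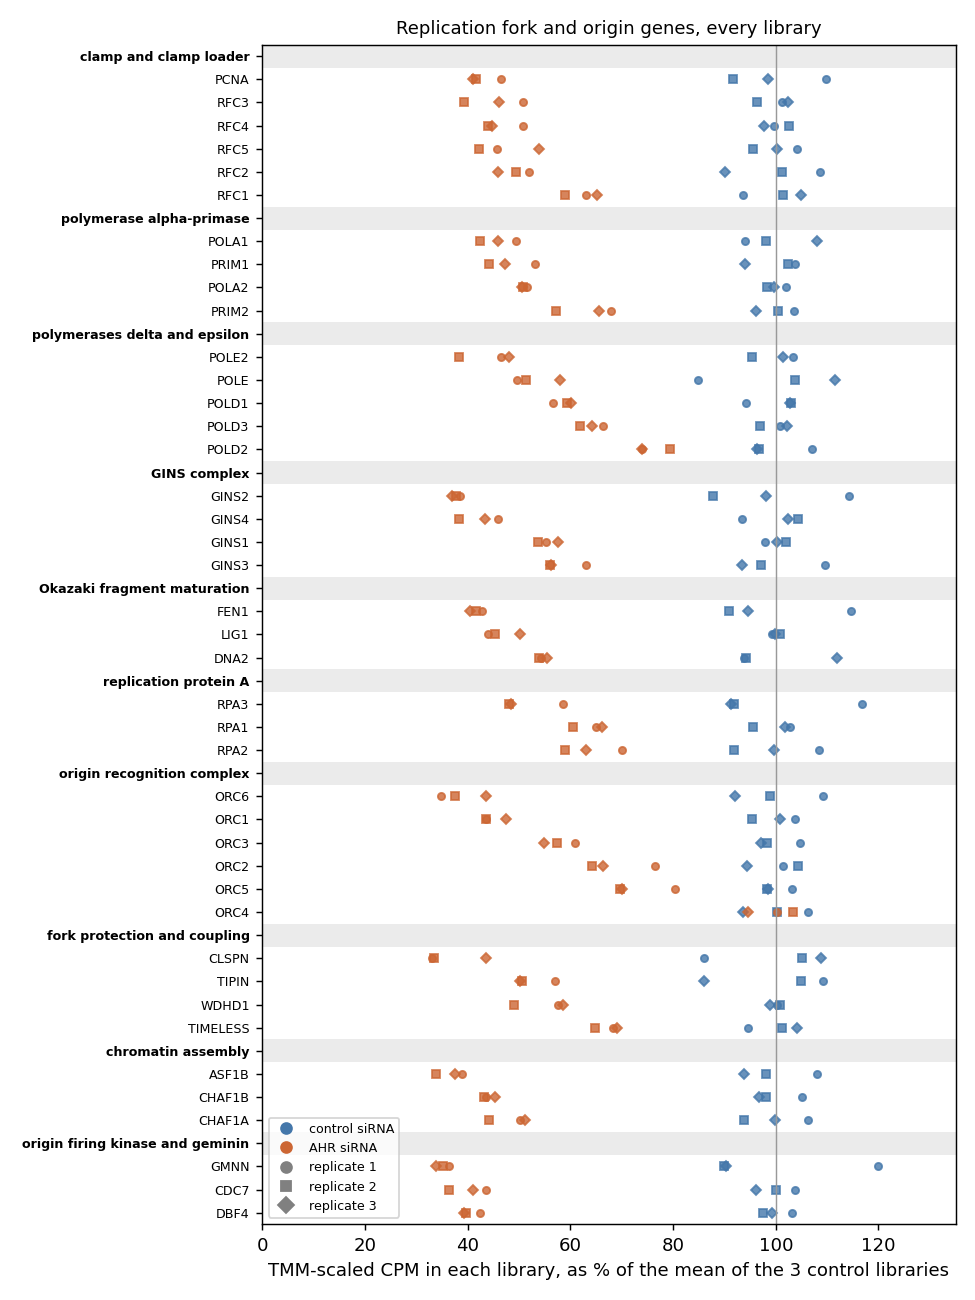
TMM-scaled CPM of each of the 41 genes in each library, as a percentage of the mean of the 3 control siRNA libraries (x axis, linear), with genes in rows by role, control siRNA in blue, AHR siRNA in orange and replicates 1, 2 and 3 as circles, squares and diamonds. The orange points lie left of the blue points in every row except that of ORC4.

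The clamp and its loader fell together, apart from a smaller change in RFC1. PCNA, the sliding clamp that tethers polymerases to DNA, was at 377, 315 and 338 CPM in control siRNA libraries and at 159, 143 and 141 CPM in AHR siRNA libraries. The control and AHR siRNA values of PCNA do not overlap, and control siRNA replicate 1 is the highest (log2 fold change -1.22, SE 0.08, edgeR adjusted p = 1.25e-10; -1.15 without that library). RFC1, the large subunit found in the PCNA loader alone, was at 133, 145 and 150 CPM and then at 89.8, 84.1 and 92.9 CPM. Its ranges were also separate, at 62.4% of control (log2 fold change -0.68, SE 0.07, edgeR adjusted p = 1.01e-07). The 4 small subunits, which also serve in other clamp loaders, fell further, to 49.2% of control for RFC2, 45.3% for RFC3, 46.5% for RFC4 and 47.3% for RFC5. The log2 ratio of RFC3 to RFC1 was -1.47, -1.65 and -1.61 in control siRNA and -1.89, -2.17 and -2.08 in AHR siRNA libraries, without overlap.

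Primase and polymerase alpha, which start every new strand, fell to about the median of the 41 genes, again with 1 subunit changed less. POLA1, the catalytic polymerase subunit, was at 60.5, 63.2 and 69.5 CPM in control siRNA and at 31.8, 27.4 and 29.6 CPM in AHR siRNA libraries. The ranges lay far apart (log2 fold change -1.12, SE 0.08, edgeR adjusted p = 1.15e-09). PRIM2, the large primase subunit, was at 32.0, 31.0 and 29.7 CPM and then at 21.0, 17.7 and 20.3 CPM, so that the groups were separate but closer (-0.66, SE 0.09, edgeR adjusted p = 5.22e-06). The accessory subunit POLA2 fell to 51.0% and the catalytic primase subunit PRIM1 to 48.2% of control. The log2 ratio of PRIM1 to PRIM2 moved from -0.03 ± 0.03 to -0.43 ± 0.06 (SD, n = 3 each).

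The replicative polymerases fell by unequal amounts, with POLD2 of polymerase delta nearest to control. POLE2, the second subunit of polymerase epsilon, which extends the leading strand, was at 21.2, 19.5 and 20.8 CPM in control siRNA and at 9.53, 7.87 and 9.84 CPM in AHR siRNA libraries, without overlap (log2 fold change -1.17, SE 0.11, edgeR adjusted p = 4.60e-08). Its catalytic partner POLE was at 53.0% of control. Among subunits of polymerase delta, which extends the lagging strand, POLD1, the catalytic one, fell to 58.6% and POLD3 to 64.2%. POLD2 was the abundant subunit that changed least, at 392, 354 and 353 CPM and then 271, 291 and 271 CPM. Its groups were still apart (log2 fold change -0.40, SE 0.07, edgeR adjusted p = 4.57e-05), and its 95% interval of -0.54 to -0.26 did not meet the intervals of POLE (-1.10 to -0.73) and POLE2 (-1.41 to -0.94).

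The 4 GINS genes, whose products complete the helicase at the fork, fell by unequal amounts. GINS2 was at 73.2, 56.3 and 62.9 CPM in control siRNA and at 24.7, 24.2 and 23.7 CPM in AHR siRNA libraries. This is 37.7% of control, with AHR siRNA libraries closer to each other than the controls were (log2 fold change -1.41, SE 0.09, edgeR adjusted p = 2.76e-10). GINS3 was at 41.9, 37.1 and 35.7 CPM and then at 24.1, 21.4 and 21.5 CPM (-0.78, SE 0.09, edgeR adjusted p = 5.25e-07). GINS4 fell to 42.5% and GINS1 to 55.5% of control. The log2 ratio of GINS2 to GINS3 was 0.81, 0.60 and 0.82 in control siRNA libraries and 0.03, 0.18 and 0.14 in AHR siRNA libraries.

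Of the enzymes that finish lagging-strand fragments, the flap nuclease FEN1 was at 172, 136 and 142 CPM in control siRNA and at 64.0, 62.3 and 60.5 CPM in AHR siRNA libraries (log2 fold change -1.27, SE 0.08, edgeR adjusted p = 2.18e-10; -1.17 without control siRNA replicate 1, its highest library). The ligase LIG1 fell to 46.5% of control. The helicase-nuclease DNA2 was at 39.4, 39.5 and 46.9 CPM and then at 22.8, 22.6 and 23.3 CPM, which are separate ranges (-0.87, SE 0.09, edgeR adjusted p = 9.37e-08). RPA had the median log2 fold change nearest to 0 of the 10 role groups, -0.65, close to the -0.67 of ORC. RPA3, its smallest subunit, was at 29.7, 23.4 and 23.2 CPM and then at 14.9, 12.2 and 12.3 CPM (-0.96, SE 0.12, edgeR adjusted p = 1.07e-06). RPA2, the subunit phosphorylated when forks stall, was at 92.9, 78.8 and 85.5 CPM and then at 60.1, 50.5 and 54.05 CPM. Its groups did not overlap (-0.64, SE 0.08, edgeR adjusted p = 1.43e-06), and RPA1, which makes most of the contacts with DNA, stood at 63.9% of control.

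The origin recognition complex showed the widest range of the 10 role groups, from a fall to 38.7% of control in ORC6 to no detectable change in ORC4. ORC6 was at 57.2, 51.8 and 48.2 CPM in control siRNA and at 18.2, 19.7 and 22.8 CPM in AHR siRNA libraries (log2 fold change -1.37, SE 0.10, edgeR adjusted p = 4.93e-10). ORC1, the subunit that is destroyed and made anew in each cell cycle in human cells, was at 88.8, 81.7 and 86.2 CPM and then at 37.2, 37.3 and 40.6 CPM (-1.16, SE 0.07, edgeR adjusted p = 1.52e-10). ORC2, ORC3 and ORC5, parts of the stable core of the complex, were at 69.0%, 57.7% and 73.4% of control, each with groups that did not overlap. ORC4, also a core subunit, was at 60.02, 56.6 and 52.8 CPM in control siRNA and at 56.7, 58.4 and 53.5 CPM in AHR siRNA libraries. These ranges lie on top of each other: the log2 fold change was -0.01 with a 95% interval of -0.17 to 0.15 (edgeR adjusted p = 0.932), so a change as large as that of any other ORC subunit lies outside its interval. The sign of that value varied with the scaling, from -0.01 with TMM to 0.14 with library totals alone (edgeR adjusted p = 0.104). Exons of ORC4 share 430 bases with ACVR2A and 157 bases with MBD5 on the other strand in GENCODE 29, and no source used here states the strandedness of the libraries, so reads there cannot be told apart. The log2 ratio of ORC1 to ORC2 was 0.33, 0.17 and 0.39 in control siRNA and -0.52, -0.26 and -0.19 in AHR siRNA libraries, so ORC1 CPM exceeded ORC2 CPM in each control library and was below it in each AHR siRNA library.

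**Figure D2:**
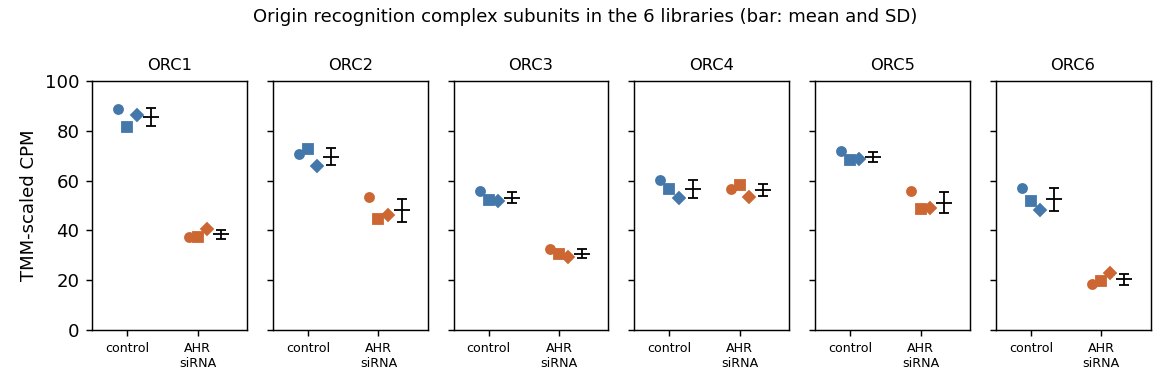
TMM-scaled CPM (y axis, linear from 0) of the 6 origin recognition complex genes in control siRNA (blue) and AHR siRNA (orange) libraries, with replicates 1, 2 and 3 as circles, squares and diamonds and the mean with SD of 3 libraries as black bars. ORC1 and ORC6 show the widest gaps between groups, and the AHR siRNA libraries of ORC4 (53.5 to 58.4 CPM) lie within the range of its controls (52.8 to 60.02 CPM).

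Fork protection genes ranged as widely as the fork enzymes. CLSPN encodes claspin, the adaptor that passes the ATR checkpoint signal to CHK1, and was at 78.9, 96.5 and 99.8 CPM in control siRNA and at 30.4, 30.7 and 40.02 CPM in AHR siRNA libraries. That is 36.8% of control (log2 fold change -1.44, SE 0.10, edgeR adjusted p = 8.39e-10), with control siRNA replicate 1 the lowest control. TIMELESS, which travels with the fork as a partner of TIPIN, was at 119, 127 and 131 CPM and then at 85.9, 81.4 and 86.8 CPM (-0.57, SE 0.07, edgeR adjusted p = 7.16e-07). TIPIN itself fell to 52.6% and WDHD1, which couples the helicase to polymerase alpha, to 55.1% of control.

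The chromatin assembly and origin control genes were the 2 role groups in which every gene had a log2 fold change below -1. ASF1B, a histone chaperone of dividing cells, was at 108, 98.5 and 94.2 CPM in control siRNA and at 39.0, 34.0 and 37.6 CPM in AHR siRNA libraries (-1.45, SE 0.08, edgeR adjusted p = 2.19e-11). CHAF1A, the large subunit of CAF-1, was at 128, 113 and 121 CPM and then at 60.6, 53.4 and 61.7 CPM (-1.04, SE 0.08, edgeR adjusted p = 9.24e-10), and CHAF1B, its partner, fell to 44.0% of control. GMNN had the lowest value of the 41, at 52.5, 39.4 and 39.5 CPM and then 15.9, 15.4 and 14.8 CPM. The 3 AHR siRNA libraries of GMNN were nearly equal, while control siRNA replicate 1 stood above the other controls (log2 fold change -1.51, SE 0.11, edgeR adjusted p = 1.04e-09; -1.37 without that library). DBF4 was at 104, 98.1 and 99.7 CPM and then at 42.7, 39.9 and 39.5 CPM (-1.31, SE 0.07, edgeR adjusted p = 1.94e-11), and its kinase CDC7 fell to 40.4% of control, against 40.5% for DBF4.

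**Figure D3:**
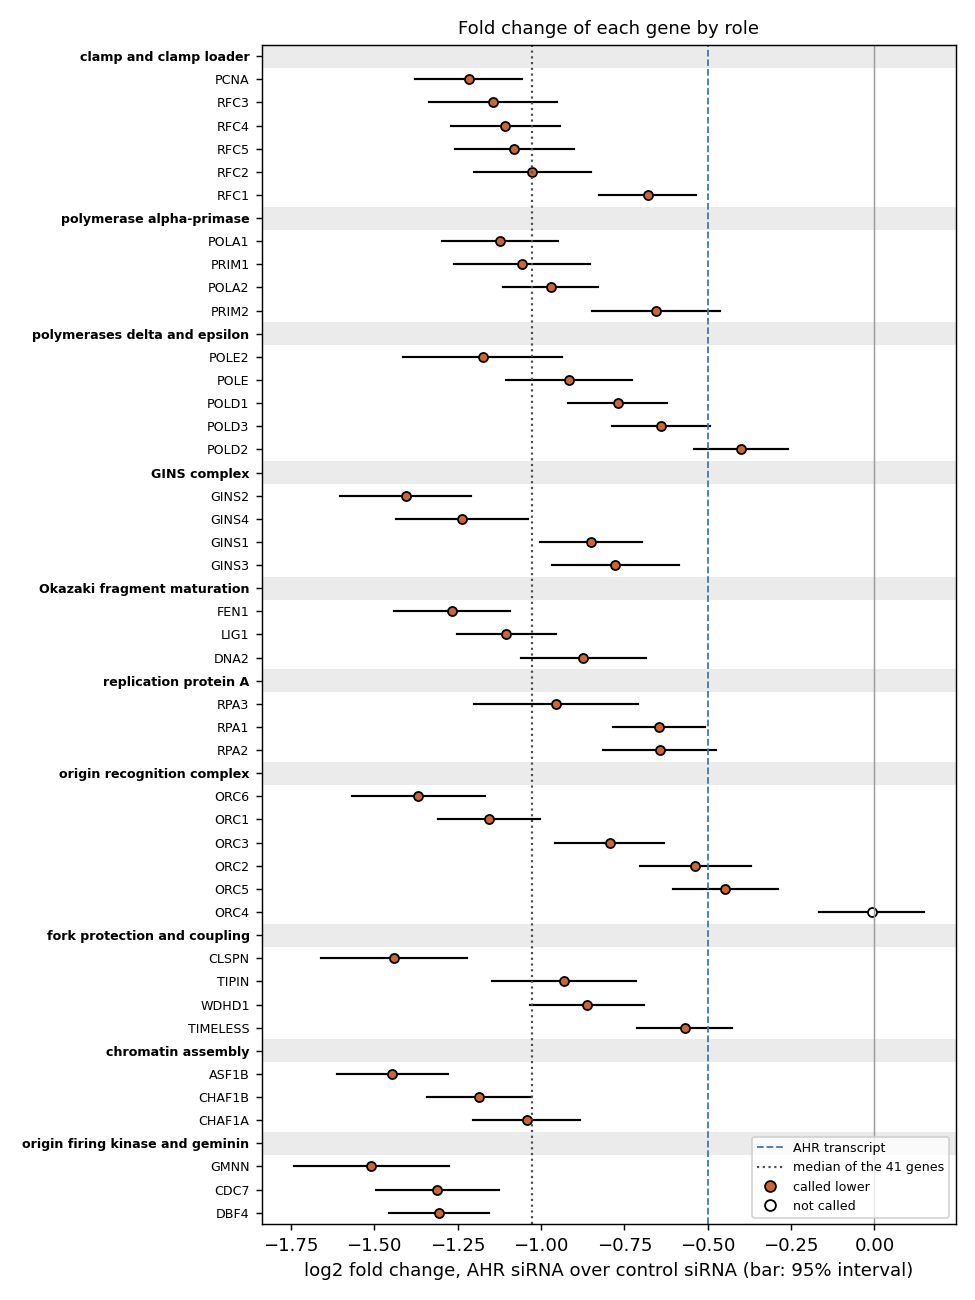
Log2 fold change of AHR siRNA over control siRNA for each of the 41 genes (points) with its 95% interval (bars), by role, beside the median of the 41 genes (dotted line, -1.03) and the AHR transcript itself (dashed line, -0.50). Filled points were called lower. The intervals of the lowest and the highest gene do not meet in any role group except RPA and the origin firing kinase with geminin. ORC4 is the open point at 0.

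Pairs of subunits, 7 in all, were compared by the log2 ratio of their CPM within each library, a measure that library scaling does not touch. The pairs were chosen with earlier results known, and in each the gene named first had the lower log2 fold change. A fall in the ratio is therefore no separate finding. The share of other gene pairs with ratios that do not overlap was not computed. In 5 of the 7 pairs (ORC1 to ORC2, PCNA to RFC1, RFC3 to RFC1, GINS2 to GINS3 and PRIM1 to PRIM2) the ratio was lower in all 3 AHR siRNA libraries than in any control, by 0.62, 0.54, 0.47, 0.62 and 0.40. The two-sided exact permutation test gave p = 0.1 for each, the smallest value that 3 against 3 libraries allow, and 0.14 after adjustment over the 7 pairs. The ratio of RPA3 to RPA1 (-0.30, exact permutation p = 0.2, adjusted 0.233) and that of POLE2 to POLE (-0.27, exact permutation p = 0.3) overlapped between groups. The last was -0.13 without control siRNA replicate 1.

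Levels of different genes were compared per kilobase of exonic sequence, which is an approximation because the transcript forms in these cells are not known. On this scale PCNA was the most abundant of the 41 in control siRNA libraries at 233 CPM per kilobase, followed by POLD2 at 99.1 and FEN1 at 60.5. The range over the 3 control libraries was 214 to 256 for PCNA, 95.4 to 106 for POLD2 and 54.9 to 69.3 for FEN1, so these 3 neighbours in the order did not overlap. Within ORC the order in control siRNA libraries was ORC1 (27.1 CPM per kilobase), ORC5 (18.7), ORC3 (14.4), ORC6 (12.2), ORC2 (11.9) and ORC4 (6.34). The control ranges of ORC6 (11.2 to 13.3) and ORC2 (11.3 to 12.5) overlapped. In AHR siRNA libraries ORC5 was first at 13.7, ORC1 stood at 12.2 and ORC6 was last at 4.70, below ORC4 at 6.30 CPM per kilobase.

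Other genes of the pathway, on a list of 36 that includes the MCM helicase, were lower in most cases: 32 of the 36 were called lower and 1 higher, with a median log2 fold change of -0.83. The lowest p-values were those of CDC6, which loads the helicase with ORC, at 28.5% of control, MCM10 at 32.1% and MCM5 at 38.1%. The 1 higher gene was ASF1A, the paralog of ASF1B, which rose from 39.3 to 53.9 CPM (log2 fold change 0.46, SE 0.08, edgeR adjusted p = 6.00e-05) while ASF1B fell. Another 3 genes, named after their values were seen, were not called: the small polymerase delta subunit POLD4 (log2 fold change 0.52, SE 0.24, edgeR adjusted p = 0.0618), CHTF8 of an alternative clamp loader (0.09, SE 0.07) and the topoisomerase TOP1 (0.04, SE 0.07).

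DNA polymerases and partners that work in repair, lesion bypass or mitochondria gave another picture. Of 16 such genes, 5 were called lower, 2 higher and 9 were not called, with a median log2 fold change of -0.11. The called-lower share of 31.2% is close to the 30.1% of all tested genes. POLQ, a polymerase of end joining, fell to 37.1% of control, PRIMPOL, which restarts stalled forks, to 60.9% and the bypass polymerase POLH to 60.6%. POLI, another bypass polymerase, rose from 10.2 to 20.6 CPM (1.02, SE 0.11, edgeR adjusted p = 2.28e-07) and the repair polymerase POLL from 28.8 to 49.8 CPM (0.79, SE 0.09). The 10 proliferation markers were all called lower, with a median log2 fold change of -1.41. Their values ran from -1.83 for CDC20 to -0.58 for CCNE2, which stood at 67.1% of control. CDC20 was at 28.0% of control, BUB1 at 32.4% and PLK1 at 32.7%, and MKI67, the Ki-67 gene, fell from 904 to 334 CPM.

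**Figure D4:**
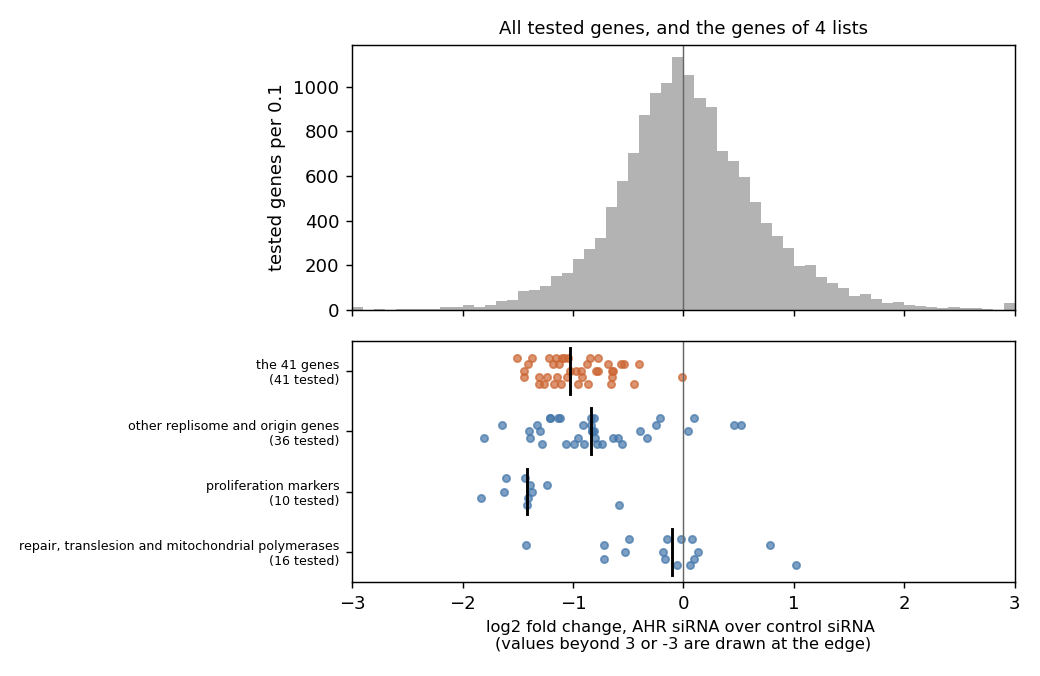
Top: log2 fold changes of all 14900 tested genes, AHR siRNA over control siRNA, as the number of genes per step of 0.1. Bottom: the same measure for each tested gene of 4 lists, with the median as a black line. The medians are -1.03 for the 41 genes, -0.83 for other replisome and origin genes, -1.41 for proliferation markers and -0.11 for repair, translesion and mitochondrial polymerases.

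As 40 of the 41 genes were called lower, by unequal amounts, their promoters were searched for short words. RefSeq windows from 250 bases before to 50 bases after the gene start (GRCh38.p14) were found for 36 of the 41, all but POLD3, GINS4, DNA2, RPA2 and RPA3. For 31 of these 36 the part after the start lay within a GENCODE 29 transcript of the gene, and for GINS1, TIMELESS, CLSPN, CHAF1A and CDC7 it did not, so their windows may be offset from the start used in the counting annotation. An E2F word (TTTCGCGC, TTTGGCGC, TTTCCCGC or TTTGCCGC, on either strand) was present in 12 of the 36 windows (33.3%), in 5.28% of the windows of 10730 tested genes and in 3.33% of all 27305 windows. The median log2 fold change was -1.11 for the 12 genes with such a word and -1.03 for the 24 without, with ranges of -1.44 to -0.78 and -1.51 to -0.01. By definition, the 9 searched genes nearer to 0 than every gene with the word lacked it. They were POLD1, RFC1, PRIM2, RPA1, TIMELESS, ORC2, ORC5, POLD2 and ORC4. GMNN, the lowest of the 41, also lacked the word. CCAAT, the word of factor NF-Y, was in 52.8% of the 36 windows and in 36.6% of those of tested genes. TTTGAA or TTCGAA, words of the cell cycle element CHR, were in 5.56% and 11.2%. GCGTG, the core to which AHR binds with ARNT, was in 18 of the 36 windows and in 50.6% of tested genes' windows, and the median log2 fold change was -1.04 with it and -1.06 without. A match is only a match of letters, and the CCAAT and GCGTG words are short enough to occur often. Only exact spellings were searched, so a window counted as without an E2F word may still hold a variant of it.

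Printed first are the windows of GINS2 and GINS3, subunits of 1 complex that both hold an E2F word and whose intervals of change do not meet. Next are those of GMNN and ORC4, the lowest and the highest of the 41 genes, which both hold none of the 4 kinds of word searched. In all, 6 of the 36 windows held none, the others being those of RFC4, PRIM2, CHAF1B and CDC7. Each window runs 5′ to 3′ on the strand of the gene, and capitals mark the E2F word, which is read here on the strand opposite to the spelling given. The word begins 31 bases before the start in GINS2 (chr16:85688905-85689204, minus strand) and 5 bases before it in GINS3 (chr16:58392221-58392520, plus strand). The other windows are those of GMNN (chr6:24774687-24774986, plus strand) and ORC4 (chr2:148021502-148021801, minus strand).
GINS2: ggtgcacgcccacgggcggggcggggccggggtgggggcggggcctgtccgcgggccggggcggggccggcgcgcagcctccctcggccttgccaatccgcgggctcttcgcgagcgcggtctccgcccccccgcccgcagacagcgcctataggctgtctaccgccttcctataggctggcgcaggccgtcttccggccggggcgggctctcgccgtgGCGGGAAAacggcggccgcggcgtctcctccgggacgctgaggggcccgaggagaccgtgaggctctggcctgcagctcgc
GINS3: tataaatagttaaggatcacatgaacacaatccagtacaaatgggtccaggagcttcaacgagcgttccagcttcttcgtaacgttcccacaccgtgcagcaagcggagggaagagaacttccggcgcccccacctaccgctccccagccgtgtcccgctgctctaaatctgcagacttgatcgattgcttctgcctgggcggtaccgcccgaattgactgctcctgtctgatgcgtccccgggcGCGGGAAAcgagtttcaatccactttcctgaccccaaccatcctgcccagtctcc
GMNN: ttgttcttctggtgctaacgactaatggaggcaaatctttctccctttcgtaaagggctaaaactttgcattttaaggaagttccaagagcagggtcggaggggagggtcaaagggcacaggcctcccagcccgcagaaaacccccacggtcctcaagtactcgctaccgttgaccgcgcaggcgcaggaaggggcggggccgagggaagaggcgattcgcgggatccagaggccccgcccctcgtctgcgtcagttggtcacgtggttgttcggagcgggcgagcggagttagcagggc
ORC4: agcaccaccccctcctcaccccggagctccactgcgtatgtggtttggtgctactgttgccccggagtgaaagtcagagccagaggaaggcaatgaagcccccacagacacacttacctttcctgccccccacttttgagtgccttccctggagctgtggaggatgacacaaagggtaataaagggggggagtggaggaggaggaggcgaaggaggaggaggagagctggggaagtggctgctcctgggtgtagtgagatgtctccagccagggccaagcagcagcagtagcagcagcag

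The 3' UTRs were also examined, since 2 words of 7 bases, GACTTAA and CACAACA, had been picked in earlier work on these data because genes that hold them fell, so the counts here describe the 41 genes and support nothing. Among the 41 genes, 6 held a word (CDC7, DBF4, GINS4, ORC2, POLD3 and POLE), all of them called lower with a median log2 fold change of -1.08. The other 35 held neither, and 34 of these were called lower with a median of -1.03. Of all tested genes whose 3' UTR was searched, 2921 held a word, and 42.7% of these were called lower with a median of -0.12. Another 9497 held neither, with 31% called lower and a median of 0.003.

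The 41 genes lie on 19 chromosomes, with at most 5 on any 1 of them. In GENCODE 29, 21 of the 41 share some exonic bases with another gene, among them POLA2, of which 2012 bases are shared with a gene on the same strand, AP000944.2. Levels of such genes are uncertain to the extent that reads in shared bases were dropped or split by the counting.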

How the data were processed

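RNA-seq counts of 6 DLD-1 libraries were used, 3 per group, grouped by the sample titles. The authors deposited 1 table of raw counts per sample, with whole numbers per versioned Ensembl gene ID. The tools HTSeq, TopHat and TopHat2 2.0.11 and the builds GRCh37 and hg19 are named, per the submitters' processing notes, without saying what each did. Of 60483 IDs, 56753 occur in GENCODE 29 (GRCh38), 37168 of them with the same version, so the build behind the counts is uncertain, and gene positions and exonic lengths printed here are those of GENCODE 29. Symbols came from a table of gene names that held 56321 of the IDs. All 37 mitochondrial genes were listed at 0.

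Counts were tested with edgeR 4.0.16 in R 4.3.3: filterByExpr, TMM scaling, and a quasi-likelihood fit (glmQLFit, glmQLFTest) with the group as its only term, adjusted by Benjamini-Hochberg over all 14900 tested genes. SE is the log2 fold change divided by the square root of F, and CPM is scaled by TMM. The fit was also run on simulated counts with changes planted in few genes, whereas 60.1% of the tested genes were called here. That run does not test the scaling under changes this broad, and its outcome is not used. Alternatives were DESeq2 1.42.0, limma-voom (limma 3.58.1), other scalings and filters, a replicate block, each library left out, an adjusted p under 0.01 and glmTreat at 1.5-fold. Replicates of a group differed by more than counting noise (chi-square per degree of freedom 1.54 to 8.68). Values in every library are given for AHR and, in each role group, for the genes with the lowest and the highest log2 fold change and any gene not called lower. From the lists of other pathway genes, of repair, bypass and mitochondrial polymerases and of proliferation markers, up to 3 lower and 2 higher genes of smallest p were named. Further genes of these lists, and the cell type markers, were named outside this rule. The genes, lists, words and pairs were chosen with earlier results of these data known. Planned protein features were not used here.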

Additional observations from a re-analysis of the deposited data

How the results depend on the processing

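The direction and call of the 40 lower genes held under all 14 refits with other scalings, filters, tests, the replicate block or a library left out, with a highest adjusted p of 0.00224, and 40 were also called at an adjusted p under 0.01. For AHR the log2 fold change ran from -0.58 to -0.43 without 1 library. ORC4, never called, was 0.071 with upper-quartile factors, 0.14 with library totals alone, and -0.063 to 0.027 without 1 library. With glmTreat the count over all genes dropped to 2513 (1197 lower, 1316 higher) from 8953, and 31 of the 41 were called lower; the exceptions were RFC1, PRIM2, POLD2, POLD3, RPA1, RPA2, ORC2, ORC4, ORC5 and TIMELESS. Library totals alone moved the median of all tested genes from 0.01 to 0.15 and the split from 4474 higher and 4479 lower to 5885 and 3205. They moved the median of the 41 genes to -0.88 and the role group medians to -0.95 (clamp and loader), -0.87 (polymerase alpha-primase), -0.62 (polymerases delta and epsilon), -0.90 (GINS), -0.96 (lagging-strand maturation), -0.50 (RPA), -0.52 (ORC), -0.75 (fork protection), -1.04 (chromatin assembly) and -1.16 (kinase and geminin). The titles give same-numbered libraries a shared number and do not say whether they were paired. Their deviations from group means correlated at 0.193, -0.040 and 0.154. Libraries with different numbers correlated at -0.263 to 0.16. These are too few libraries to tell whether there was a pairing. With the replicate block 9598 genes were called, among them 40 of the 41 as lower, at a median of -1.02, and no call among the 41 changed. With 3 libraries per group no subunit ratio could reach a p under 0.1, and the lowest counts were those of POLE2, at 107 to 134 in AHR siRNA libraries.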

Other observations

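Control siRNA replicate 1 held the highest of the 3 control values for 26 of the 41 genes and the lowest for 10. The median exonic length was 3410.5 bases for the 26 and 5646.5 bases for the 10. Among the former, RPA3 was at 29.7 CPM there against 23.4 and 23.2 CPM in the other controls, and among the latter POLE was at 135.4 CPM against 166 and 178 CPM. Without that library the log2 fold change of RPA3 was -0.84 in place of -0.96 and that of POLE was -1.03 in place of -0.92. The part of transcript length in this difference between control libraries was not tested.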
